A study of Homo sapiens with 25 samples.

Results

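Histone H3 acetylated at lysine 27 (H3K27ac) was compared between pharyngeal foregut endoderm (hPFE, 2 libraries) and definitive endoderm (hDE, 2 libraries), both made from the human embryonic stem cell line H1, long in general use, by a directed differentiation that runs from stem cells (hESC) through hDE and anterior foregut endoderm (hAFE) to hPFE. The series holds chromatin immunoprecipitation sequencing of H3K27ac, H3K4me2 and H3K27me3 at these 4 stages and 4 input libraries; 21 of its 25 samples have a peak list, and 4 of these lists are the H3K27ac lists compared here. All 4 libraries come from cells labelled only with the line and the stage, with no genetic change or agent named, and from formaldehyde-fixed cells. The labels give neither whether the replicates were separate cultures nor what share of the cells had reached the stage, and fewer cells with a mark cannot be told apart from less of it per cell. A protein-coding gene was called gained where both hPFE lists and neither hDE list had a peak within 1 kb of an annotated gene end, and lost in the reverse case. Of 19974 protein-coding genes on chromosomes 1 to 22 and X, 384 gained and 633 lost the mark. Distal regions, the merged peaks of the 4 lists over 2 kb from any gene end, were called the same way, and 9179 gained and 24976 lost it among 197730. With 2 libraries against 2 the smallest two-sided p of an exact permutation test is 0.333, so no p-value is given and the calls are counts of presence and absence.

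H3K27ac marks active promoters and enhancers, H3K4me2 marks promoters and enhancers whether or not they are active, and H3K27me3 is the mark of Polycomb repression, which is placed on the same lysine as the acetyl group, so that a single histone tail carries one or the other. Definitive endoderm forms under Nodal signalling from cells that pass through a primitive streak state, and carries the factors EOMES, GSC, MIXL1 and SOX17. The pharyngeal endoderm is the most anterior part of the gut tube, forms the pouches that give rise to thymus, parathyroid and parts of the thyroid and middle ear, and is patterned by retinoic acid, fibroblast growth factors, bone morphogenetic proteins (BMP) and sonic hedgehog.

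The promoters below show what the calls look like at the level of sequence. Each is the 250 bases before the annotated start, from RefSeq (GRCh38.p14), 5′ to 3′ on the strand of the gene, with every CG dinucleotide in capitals, since H3K27me3 is known to favour promoters dense in CG. GRHL3, which encodes a grainyhead factor of surface epithelia (chr1:24319107-24319356, plus strand), and FOXE1, a forkhead factor of the thyroid and pharyngeal endoderm (chr9:97852976-97853225, plus strand), had a peak over these bases in both hPFE libraries and neither hDE library. MIXL1, a homeobox factor of the primitive streak (chr1:226223414-226223663, plus strand), and GSC, the goosecoid homeobox factor of the organizer (chr14:94770114-94770363, minus strand), had one in neither hPFE library and both hDE libraries.
GRHL3: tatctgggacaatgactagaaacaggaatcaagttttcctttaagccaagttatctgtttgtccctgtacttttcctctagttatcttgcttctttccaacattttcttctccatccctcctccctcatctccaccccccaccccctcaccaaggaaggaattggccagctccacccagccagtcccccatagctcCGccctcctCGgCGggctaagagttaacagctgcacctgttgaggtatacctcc
FOXE1: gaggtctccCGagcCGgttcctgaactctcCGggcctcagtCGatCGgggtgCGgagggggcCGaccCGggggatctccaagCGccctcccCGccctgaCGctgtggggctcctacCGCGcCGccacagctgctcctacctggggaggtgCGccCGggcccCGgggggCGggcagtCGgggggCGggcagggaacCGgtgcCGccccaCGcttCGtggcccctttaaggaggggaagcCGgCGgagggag
MIXL1: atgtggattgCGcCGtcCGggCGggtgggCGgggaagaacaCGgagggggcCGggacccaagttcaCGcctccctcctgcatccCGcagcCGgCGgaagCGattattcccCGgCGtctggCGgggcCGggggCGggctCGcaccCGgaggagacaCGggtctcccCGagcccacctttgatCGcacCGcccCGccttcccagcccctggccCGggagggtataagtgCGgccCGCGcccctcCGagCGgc
GSC: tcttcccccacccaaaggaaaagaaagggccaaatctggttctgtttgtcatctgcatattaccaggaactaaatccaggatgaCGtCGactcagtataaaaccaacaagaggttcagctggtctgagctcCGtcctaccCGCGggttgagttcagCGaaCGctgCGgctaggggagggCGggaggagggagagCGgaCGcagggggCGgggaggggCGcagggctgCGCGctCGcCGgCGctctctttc
The GRHL3 promoter holds 3 CG dinucleotides, that of FOXE1 26, that of MIXL1 30 and that of GSC 18. A promoter of this kind was on record for 291 of the gained and 461 of the lost genes, with a median of 12 CG (quartiles 4 and 24) in gained promoters and 16 (quartiles 6 and 25) in lost ones, beside 17 (quartiles 6 and 26) over 15812 protein-coding promoters. Among gained genes the median was 20 in the 49 promoters of genes with H3K27me3 in both hDE and neither hPFE library, and 6 in the 149 of genes with it in none of these 4 libraries. Among lost genes it was 25 in the 59 promoters of genes with H3K27me3 in both hPFE and neither hDE library, and 10 in the 231 with it in none. Promoters of genes with H3K27me3 in all 4 libraries were as dense in CG, with a median of 22 in 17 gained and 22 in 53 lost promoters. By these medians the groups named here with H3K27me3 were denser in CG than those with none. Of the small groups left, 5 lost promoters with H3K27me3 in hDE alone had a median of 9, below the 10 of those with none. The 2 gained promoters with it in hPFE alone had a median of 11. The quartiles overlap, at 12 and 31 in the 49 gained promoters and 2 and 18 in the 149, and at 17 and 31 in the 59 lost promoters and 3 and 19 in the 231. GRHL3, with 3 CG, goes the other way, with H3K27me3 in both hDE and neither hPFE library. Over all promoters the median was 16 for genes with H3K27me3 in hPFE alone, 21 for those with it in hDE alone and 17 for those with it in none. Of 10 short motifs searched on both strands in the same 250 bases, that of TEAD (GGAATG) was in 13.4% of gained, 9.11% of lost and 10.1% of all promoters, that of GATA factors (AGATAA) in 9.62%, 7.59% and 6.84%, and that of AP-1 (TGANTCA) in 6.19%, 5.21% and 5.05%. Those of forkhead factors (TGTTTAC), T-box factors (TCACACC), SOX factors (ACAATGG), GLI factors (GACCACCC), FOXH1 itself (AATCCACA), MEIS factors (TGACAGNT) and HOX with PBX (TGATTNAT, which can also hold an AP-1 match) were each in at most 2.75% of gained, 2.60% of lost and 2.53% of all promoters. GRHL3 has a match to the GATA letters and MIXL1 one to the FOXH1 letters.

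The deposited lists held 81170 and 111256 peaks in the hPFE libraries and 101186 and 111076 in the hDE libraries, covering 27.1 and 31.9 Mb of hPFE and 43.9 and 45.9 Mb of hDE. Bases shared over bases covered by either list came to 0.256 for the pair of hPFE lists and 0.499 for the pair of hDE lists, against 0.155 to 0.174 for the 4 pairings of an hPFE with an hDE list, so the hPFE libraries resembled each other less than the hDE libraries did. Peaks near a gene end marked 10940 and 11164 genes in hPFE and 11232 and 11710 in hDE. Read depth is not in the peak lists. The stages bore out their labels in part. Of 10 definitive endoderm markers, 3 and 2 had a peak in the hPFE libraries and all 10 in each hDE library. Of 14 pharyngeal endoderm markers, 10 and 9 had one in hPFE and 1 and 3 in hDE, and TBX1, a defining pharyngeal transcription factor, had none in any of the 4 libraries. PAX1 and PAX9, paired-box factors of the pharyngeal pouches, were marked in hPFE replicate 1 (fold enrichment 8.84 and 7.06) and in no other of the 4 lists. Mesenchymal genes differed between the hPFE libraries, with 4 and 11 of 20 marked in hPFE replicates 1 and 2, against 8 and 7 in hDE. Neural genes were marked at like counts, 4 and 5 of 20 in hPFE and 4 and 5 in hDE, and 15 of them, SOX1 and PAX6 included, had no peak in any of the 4 lists. Neural crest genes were at 2 and 1 of 13 in hPFE and 2 and 3 in hDE, and genes of mesoderm, heart, blood and endothelium at 4 and 5 of 23 in hPFE and 3 and 2 in hDE. The part of other cell types in the calls below was not tested.

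At gene ends, the 384 gained genes were 4.89% of the 7845 with the mark in neither hDE library, and the 633 lost genes were 5.85% of the 10813 with it in both. A further 9358 genes had the mark in all 4 libraries and 6603 in none. Where the strand of the gene was on record, the peak lay at the 5′ end in 223 gained and 351 lost genes, at the 3′ end in 40 gained and 78 lost genes, and at both ends in 12 gained and 27 lost genes. Calls near the limit were common. In 47 gained and 42 lost genes the weaker of the 2 peaks had a −log10 p below 3, with a median of 4.57 over gained and 5.85 over lost genes. Just outside stood 312 genes with the mark in both hPFE libraries and 1 hDE library, whose single hDE peak had a median −log10 p of 4.90, and 822 with it in 1 hPFE and both hDE libraries, whose single hPFE peak had 5.29. The counts lean on the library: without hPFE replicate 1 there were 896 gained and 1037 lost genes, without hPFE replicate 2 730 and 1051, without hDE replicate 1 488 and 1112, and without hDE replicate 2 592 and 842, and lost genes outnumbered gained ones each time.

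Genes of the primitive streak and of early endoderm led the losses. Of 14 primitive streak factors, 9 carried H3K27ac in both hDE libraries and 8 of these lost it, beside the 5.85% of all such genes. EOMES, the T-box factor that starts the endoderm programme, had no peak in either hPFE library and fold enrichments of 19.0 and 21.3 in the hDE libraries, the strongest near its 3′ end (chr3:27714407-27715651 in hDE replicate 1). GSC had none in hPFE and 16.3 and 22.4 in hDE, where the peak covered the gene (chr14:94768203-94770226). MIXL1 had none in hPFE and 9.09 and 10.7 in hDE. LHX1, a LIM homeobox factor of the anterior streak, had none in hPFE and 9.90 and 14.2 in hDE, and SP5, a target and effector of WNT signalling, had none in hPFE and 5.03 and 6.14 in hDE. SP8 (4.55 and 3.61 in hDE) and ZIC2 (17.8 and 20.3), zinc finger factors of the early embryo, were lost too, and both also had a peak in both hESC libraries.

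Of 17 endoderm factors, 12 were marked in both hDE libraries, and 6 of these lost the mark, beside 5.85% of all such genes. SOX17, the factor that defines endoderm, had no peak in hPFE and 13.9 and 18.4 in hDE, HHEX, a homeobox factor of the anterior endoderm and liver, none in hPFE and 12.7 and 16.6 in hDE, and GLIS3 none in hPFE and 15.1 and 15.5 in hDE. GATA4 (9.35 and 7.47 in hDE) and FOXA3 (5.73 and 9.81), factors of the gut tube and liver, were without a peak in hPFE too. FOXA1 and FOXA2, pioneer factors of the whole gut endoderm, kept a peak in all 4 libraries, with 9.37 and 8.83 in hPFE and 10.4 and 11.2 in hDE for FOXA1, and with 9.79 and 2.03 in hPFE and 15.95 and 14.91 in hDE for FOXA2. GATA6, OTX2 and CXCR4 fell just outside the call, each with a peak in hPFE replicate 1 (4.72, 5.07 and 2.62) and none in hPFE replicate 2. In the hDE libraries GATA6 had 17.5 and 18.2, OTX2 15.8 and 14.4, and CXCR4, the receptor used to sort definitive endoderm, 10.59 and 16.02. CER1, a secreted antagonist of Nodal and WNT, had a peak in hPFE replicate 2 alone (4.99) and 19.1 and 19.8 in hDE. KLF5, a factor of simple epithelia, was the 1 gained gene of the 4 endoderm factors that could gain the mark (3.28 and 4.27 in hPFE, none in hDE). Among 13 marked surface and secreted endoderm genes 3 lost it. They were FGF17, a growth factor (none in hPFE, 12.2 and 17.3 in hDE), FRZB, a secreted WNT antagonist (none, 4.59 and 5.10), and TNFSF14, a cytokine (none, 17.9 and 19.8).

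Signalling genes went separate ways by pathway. In the Nodal and activin list 6 of 18 marked genes lost H3K27ac and none of 3 gained it. LEFTY1, the feedback inhibitor of Nodal, had no peak in hPFE and 12.0 and 16.5 in hDE, and FOXH1, the DNA-binding partner of SMAD2 and SMAD3, had none in hPFE and 10.7 and 13.3 in hDE. NODAL itself (3.22 and 3.73 in hDE, at the 3′ end), GDF1 (3.12 and 3.61), GDF3 (3.84 and 4.07) and the corepressor TGIF1 (3.42 and 3.92) had low peaks in hDE and none in hPFE. In the BMP list the direction was the other one, with 5 of 10 genes that could gain the mark gaining it and 1 of 12 losing it, beside 4.89% and 5.85% of all genes. The gained genes take different places in the pathway. They were the ligand BMP5 (3.91 and 3.14 in hPFE), the receptor BMPR1B (3.4 and 3.23), the effector SMAD9 (5.14 and 3.44), the extracellular antagonist NOG (6.69 and 3.72) and ID4, an inhibitor of helix-loop-helix factors and a known BMP target (8.65 and 7.31), all with no peak in hDE. BMP2, a ligand, was the 1 lost gene, with no peak in hPFE and 8.15 and 12.8 in hDE.

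In the hedgehog list 2 of 9 genes gained the mark and none of 8 lost it. Over all such genes the shares were 4.89% and 5.85%, which a single call already exceeds in each of the small lists of this paragraph. PTCH1, the receptor of sonic hedgehog and itself a target of the pathway, had 8.28 and 7.98 in the hPFE libraries and no peak in hDE, at its 5′ end (chr9:95516408-95516747 in hPFE replicate 1). The coreceptor BOC had 4.77 and 3.82 in hPFE and none in hDE. SHH, the ligand, was just outside the call, with 8.77 and 4.68 in hPFE and a single peak of 2.61 in hDE replicate 2. In the fibroblast growth factor list FGFR3, a receptor, was gained (5.90 and 2.86 in hPFE, none in hDE), 1 of 7, and FGF8 and FGF17, ligands of the streak and organizers, were lost, 2 of 15. FGF8 had no peak in hPFE and 11.0 and 17.3 in hDE. In the WNT list LEF1, a nuclear effector, was the 1 of 11 gained (2.88 and 1.96 in hPFE, both low), and 4 of 13 were lost: WNT3, the ligand of the streak (5.83 and 6.13 in hDE), the antagonists SFRP1 (12.4 and 14.7) and FRZB, and the receptor LGR5 (3.4 and 3.47). In the retinoic acid list the gained genes were 2 of 12, STRA6, the retinol transporter (3.61 and 3.34 in hPFE), and TSHZ1, and the lost gene was 1 of 12, the receptor RXRG (8.06 and 5.61 in hDE). In the Notch list NRARP, a feedback regulator, was 1 of 7 gained (4.33 and 3.72 in hPFE), and none of 6 was lost.

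Pharyngeal transcription factors had the most gained genes of any list, with 9 of 28 gained and 2 of 17 lost, beside 4.89% and 5.85% of all such genes. By share, at 32.1%, they came after the lists of BMP (50%), epithelia (42.9%) and HOX groups 1 to 3 (37.5%). ISL1, a LIM homeobox factor of pharyngeal endoderm and the second heart field, had 7.15 and 5.80 in the hPFE libraries and no peak in hDE (chr5:51382312-51383286 in hPFE replicate 1, upstream of the gene). FOXE1 had 12.1 and 3.94 in hPFE and none in hDE. SOX2, a factor of stem cells and of the anterior gut, had 7.45 and 3.95 in hPFE and none in hDE, but also 10.7 and 10.4 in the hESC libraries and 11.0 and 8.27 in the hAFE libraries, so that hDE was the stage without it. NKX2-5 (4.25 and 3.37 in hPFE) and NKX2-6 (6.19 and 4.64), homeobox factors of the pharynx and heart, MEIS3 (4.33 and 3.14), a HOX cofactor, SIX2 (5.09 and 4.13), TSHZ1 (6.59 and 3.59) and FOXC2 (2.88 and 2.55) completed the gains, with no peak in hDE. The lost pharyngeal genes included IRX3, a homeobox factor (none in hPFE, 6.23 and 8.29 in hDE). TBX1 was not marked in hPFE or hDE, as above.

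The HOX genes split by position in their clusters. Of the 8 genes of groups 1 to 3, none was marked in both hDE libraries and 3 gained the mark, beside 4.89% of all genes that could. Among them HOXA2 had 9.36 and 2.71 in hPFE and no peak in hDE, and HOXB2 8.90 and 3.97 in hPFE and none in hDE. At peaks of −log10 p of 5 or more 1 of the 8, HOXB2, was called gained. HOXA3, HOXB1 and HOXB3 had a peak in hPFE replicate 1 alone (8.67, 3.79 and 4.54), and HOXD1 and HOXD3 in none of the 4 lists. None of the 29 genes of groups 4 to 13 that could gain the mark gained it, and HOXD13, with low peaks of 2.73 and 2.71 in hDE, was called lost. In H3K27me3 all 8 genes of groups 1 to 3 were marked in both hDE libraries and 4 in both hPFE libraries, while all 31 of groups 4 to 13 were marked in both libraries of either stage.

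Genes of stratified and simple epithelia gained the mark in 6 of 14 cases and lost it in 1 of 15, beside 4.89% and 5.85% of all such genes. CLDN4, a tight junction claudin, had 13.5 and 16.6 in hPFE and no peak in hDE, and had the highest enrichment of the gained list genes in each hPFE list. The grainyhead factors GRHL3 (7.46 and 5.11 in hPFE) and GRHL1 (4.09 and 4.54), the integrin subunits ITGB4 (3.28 and 4.86) and ITGB6 (1.94 and 3.42), and KLF5 were the others, none with a peak in hDE. ITGB4, ITGB6 and KLF5 were not called gained at peaks of −log10 p of 5 or more, where the list had 5 gained genes. GRHL2, the third grainyhead factor, was marked in all 4 libraries, at 13.8 and 6.86 in hPFE and 3.25 and 4.26 in hDE. CLDN1, another claudin, was lost (none in hPFE, 4.70 and 5.18 in hDE). EPCAM was marked in all 4 libraries, and CDH1, the epithelial cadherin, in both hPFE (6.25 and 3.4) and 1 hDE library (2.89).

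In the other lists the counts were small, to be read beside the 4.89% gained and 5.85% lost of all such genes. Gains were near that share in the lists of thymus, parathyroid and thyroid (6.25%) and of mesoderm, heart, blood and endothelium (5%). Liver, pancreas and intestine genes gained in none of 11 cases and lost in 4 of 7, with ALB, APOA1, APOA2 and MNX1 at 2.89 to 5.41 in hDE and no peak in hPFE. Genes of thymus, parathyroid and thyroid gained in 1 of 16 (FOXE1) and lost in 2 of 3 (HHEX and PSMB11). Lung, oesophagus and stomach genes gained in 1 of 12 (SOX21, 9 and 3.28 in hPFE) and lost in none of 3. Pluripotency genes gained in 1 of 8 (SOX2) and lost in 2 of 11, DPPA4 (3.43 and 3.72 in hDE) and PRDM14 (3.36 and 3.20). Neural genes changed in none of 15 and none of 4. Neural crest genes gained in 1 of 10 (NGFR) and lost in 2 of 2 (EDNRA and SOX10), mesenchymal genes gained in 1 of 11 (CDH6) and lost in none of 6, genes of mesoderm, heart, blood and endothelium gained in 1 of 20 (NKX2-5) and lost in 1 of 2 (KDR), and interferon-induced genes gained in 1 of 11 (MX1) and lost in none of 11. Housekeeping genes, the comparison list, changed in none of 1 and none of 19.

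**Figure D1:**
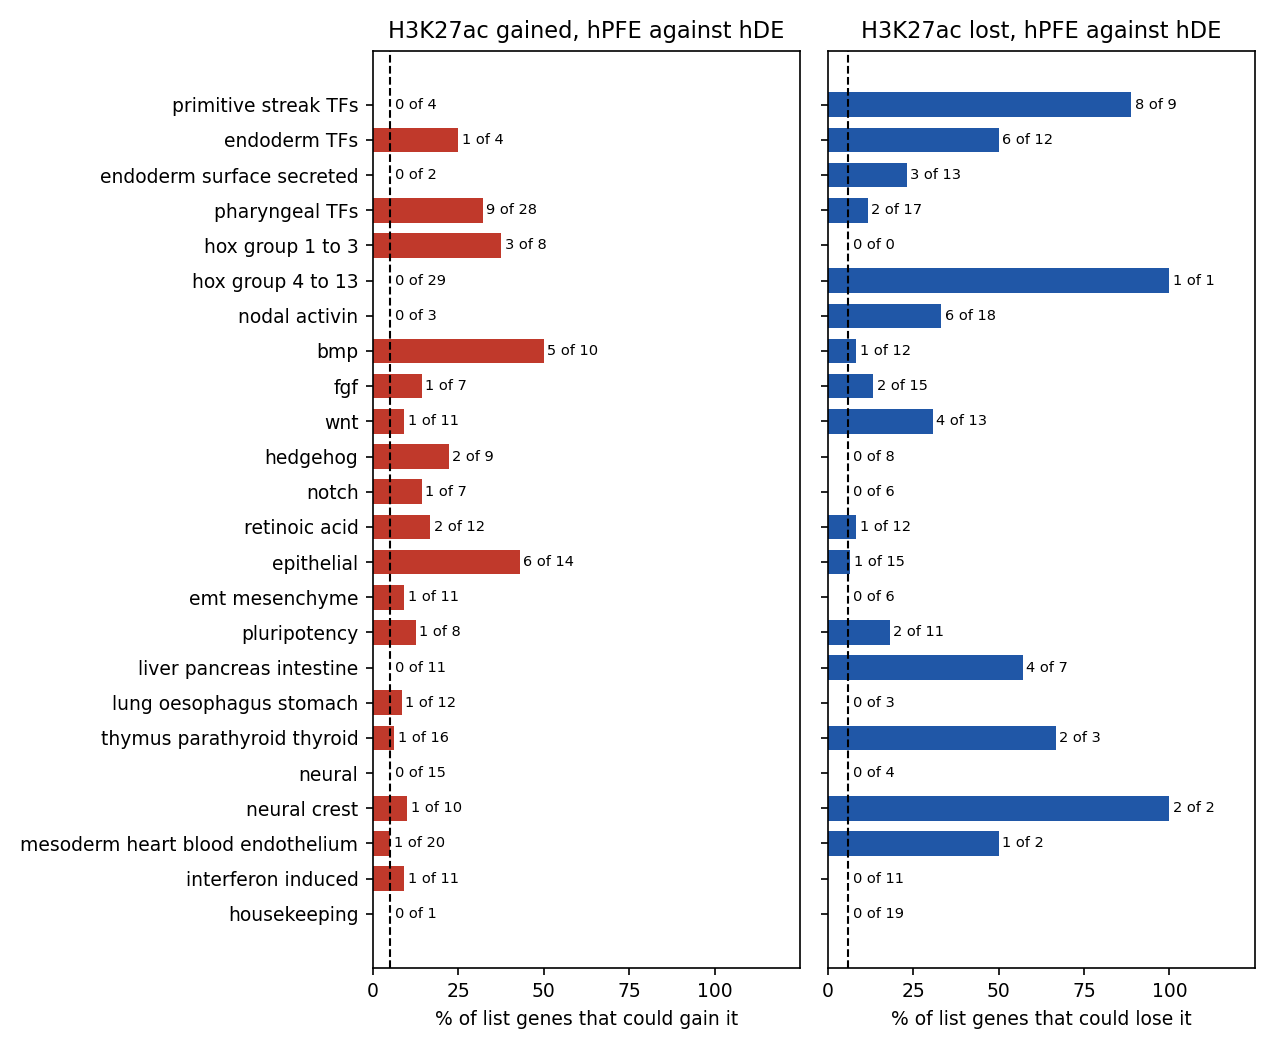
Share of the genes of each list that gained H3K27ac in hPFE, out of those with it in neither hDE library (left), and that lost it, out of those with it in both hDE libraries (right), in percent, with the counts beside the bars and the share over all protein-coding genes as a dashed line (4.89% and 5.85%). The highest bars among the gains are those of BMP genes (5 of 10), epithelial genes (6 of 14), HOX groups 1 to 3 (3 of 8) and pharyngeal factors (9 of 28). Among the losses, neural crest genes (2 of 2) and HOX groups 4 to 13 (1 of 1) reach the full share on very few genes, followed by the primitive streak (8 of 9).

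Among genes outside the lists, the gained gene with the strongest peaks in both hPFE libraries was CPA5, a carboxypeptidase (9.94 and 10.4 in hPFE, none in hDE), followed by CCND1, the cell cycle regulator cyclin D1 (12.2 and 9.43, chr11:69641173-69642710 in hPFE replicate 1). Next were ASXL3 (7.63 and 7.84), a chromatin regulator of the Polycomb system, AHR (7.87 and 7.14), the aryl hydrocarbon receptor, TANK (8.06 and 6.32) and EFNB2 (8.74 and 6.56), an ephrin ligand. LOC107987042, ANKRD65, BID, RBMS3 and MSLN were also among the first 12, with 4.91 to 9.52. The lost genes with the strongest peaks were CCDC81 (none in hPFE, 13.7 and 22.6 in hDE), ZAP70, a kinase of the T-cell receptor (none, 14.4 and 18.2), SHISAL2B (none, 15.8 and 17.4), CAVIN3 (none, 14.7 and 20.1) and CFAP65 (none, 14.7 and 22.4). FAM124A, SLC1A1, DMTN, FOXI1, VWF, GALNT12 and MCF2L2 followed, with 9.38 to 17.3. Neighbouring genes can share a peak: the peak of SLC1A1 is that of GLIS3 and the peak of DMTN that of FGF17, and 20 of the gained and 24 of the lost genes share their strongest peak in this way.

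The share of genes with H3K27me3, which took no part in the calls, moved the opposite way in each set. A full change between both hDE and both hPFE libraries was seen in a part of each set, 67 of the 384 gained and 95 of the 633 lost genes. Another 217 gained genes had H3K27me3 in neither hDE library. Of the 384 gained genes, 12.0% and 15.4% had H3K27me3 in the hPFE libraries and 31.8% and 41.7% in the hDE libraries. Of the 633 lost genes, 36.3% and 44.4% had it in hPFE and 16% and 24.8% in hDE. Over all protein-coding genes the shares were 16% and 18.1% in hPFE and 14.5% and 20.0% in hDE. The departure from these was clear at the stage without the acetylation, hDE for gained and hPFE for lost genes. At the stage with it both sets lay nearer the background, gained genes below and lost genes above. The shares of the 2 stages did not overlap in either set. Gene by gene, 67 of the 115 gained genes with H3K27me3 in both hDE libraries had it in neither hPFE library (58.3%), against 16.3% of the 2692 protein-coding genes that started with it. Genes with H3K27ac in all 4 libraries, which gained nothing, also had a high share, 118 of 285 (41.4%), and those with H3K27ac in none a low one, 115 of 1615 (7.12%); the difference between the gained genes and those marked throughout was not tested. Of the 462 lost genes with H3K27me3 in neither hDE library, 95 had it in both hPFE libraries (20.6%), against 2.06% of 15784. Genes with H3K27ac in all 4 libraries had H3K27me3 in 4.47% and 4.88% in hPFE and 3.80% and 7.02% in hDE, and genes with H3K27ac in none in 28.6% and 31.0% in hPFE and 25.4% and 32.1% in hDE. Requiring the mark in both libraries, 7.55% of gained genes had H3K27me3 in hPFE and 29.9% in hDE, against 12.8% and 13.5% of all protein-coding genes. Calls made without hPFE replicate 1 or 2 put the first share at 13.1% or 13.2%, close to that of all genes.

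Gained list genes that gave up H3K27me3 included BMPR1B, CDH6, FGFR3, GRHL1, GRHL3, HOXA2, HOXB2, ISL1, MEIS3, PTCH1 and SOX2. ISL1 had no H3K27me3 peak in hPFE and 6.21 and 9.29 in hDE, and HOXA2 none in hPFE and 8.27 and 8.63 in hDE. The values of SOX2 in hDE were lower, 3.55 and 4.23, and PTCH1 had 5.67 and 5.90. In the hAFE library, ISL1, SOX2, PTCH1 and BMPR1B had no H3K27me3 peak, whereas HOXA2 and HOXB2 still had one (10.4 and 10.3). Some gained genes kept H3K27me3 in both hPFE libraries beside the new H3K27ac, among them NKX2-5 (6.13 and 7.04 in hPFE, 6.83 and 10.7 in hDE), SIX2 (5.13 and 6.24 in hPFE, 7.46 and 9.29 in hDE) and FOXC2 (8.08 and 5.78 in hPFE, 9.85 and 8.90 in hDE). Whether both marks lay on the same cells was not tested.

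Lost list genes that took on H3K27me3 included BMP2, CLDN1, EOMES, FGF17, FGF8, FOXA3, FOXH1, GATA4, GSC, HHEX, LHX1, MIXL1, RXRG, SFRP1, SOX17, SP5, SP8, WNT3 and ZIC2. All 8 lost primitive streak factors took it on. GSC had H3K27me3 peaks of 7.18 and 12.9 in hPFE and none in hDE, SOX17 9.36 and 8.37 in hPFE and none in hDE, and EOMES 8.43 and 9.48 in hPFE and none in hDE. These genes also had it in the hESC libraries, at 12.3 and 20.3 for GSC, 10.1 and 15.9 for SOX17 and 15.3 and 22.6 for EOMES, so hDE was the stage without it. ZIC2 and FOXH1 were different, with no H3K27me3 peak in either hESC library and H3K27ac there instead. LEFTY1, NODAL and GDF3 lost H3K27ac without an H3K27me3 peak in any library of any stage.

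**Figure D2:**
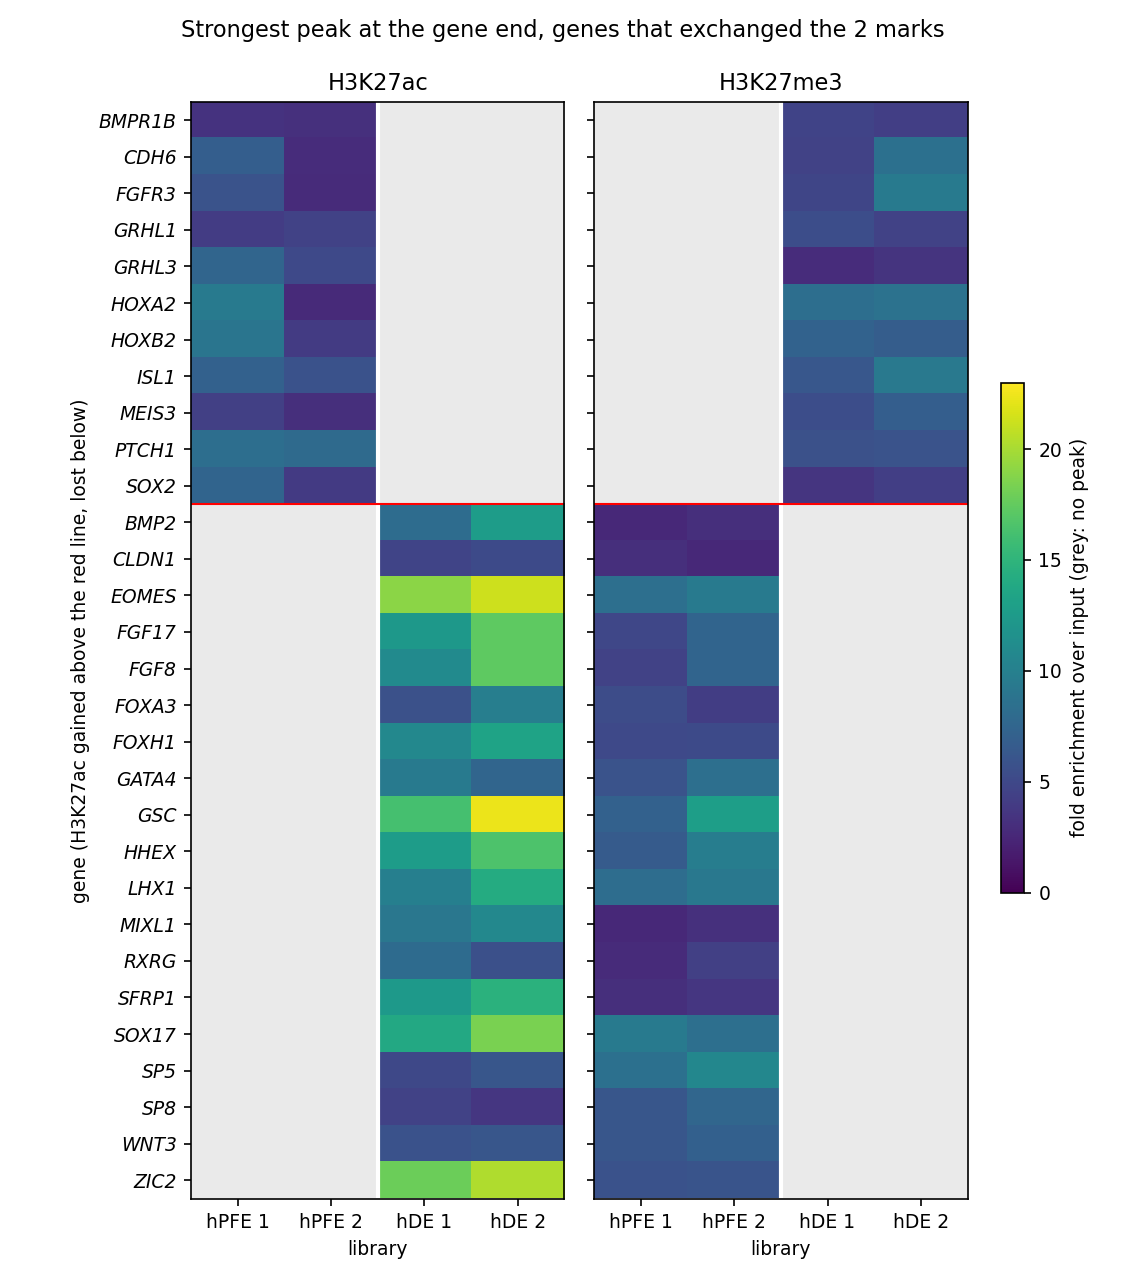
Fold enrichment over input of the strongest peak at the gene end for H3K27ac (left) and H3K27me3 (right) in the hPFE and hDE libraries, by gene, for the gained and lost list genes named above whose H3K27me3 changed the other way. Grey cells have no peak, and the colours describe peaks within a list, since enrichment is not on a common scale between libraries. The hDE acetylation of EOMES, GSC and ZIC2 is the strongest among the hDE peaks shown, up to 22.4.

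H3K4me2 was at most gene ends of both sets at every stage, with the higher share at the stage with the acetylation. The hPFE share rests on 1 library. Gained genes had an H3K4me2 peak in 72.7% and 72.7% in the hESC libraries, 62.8% and 66.9% in hDE, 78.1% in the 1 hAFE library and 85.2% in the 1 hPFE library. Lost genes had it in 78.5% and 80.3%, 82.5% and 85.2%, 73.6% and 70.1% at the same stages, beside 70.0% to 74.6% of all protein-coding genes over the 6 libraries. The lowest of these shares was 62.8%. In H3K27ac of the intermediate hAFE stage, 41.9% and 15.1% of gained genes and 14.1% and 3.79% of lost genes had a peak. The shares were 50.2% and 34.7% over all genes, and 95.1% and 70.4% over genes with H3K27ac in all 4 hPFE and hDE libraries. Over genes with it in none of these 4 they were 1.09% and 0.379%, so gained and lost genes lay between the 2 groups. The second hAFE list is the shorter, with 24871 peaks against 42100. CLDN4 (12.2 and 4.30), ID4 (10.4 and 3.69), SOX2, ISL1 (6.59 and 3.89) and PTCH1 (5.06 and 5.35) were marked in both hAFE libraries, and FOXE1, GRHL3, NOG and HOXA2 in neither. Of the lost list genes, GLIS3 (4.47 and 2.80) and IRX3 (4.11 and 3.47) had a peak in both hAFE libraries and EDNRA in 1. None of the 8 lost primitive streak factors had one.

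Distal peaks were shared by the 2 stages far less often than peaks at gene ends, in both directions. The 24976 lost regions were 76.3% of the 32715 with a peak in both hDE libraries, against 5.85% at gene ends. The 9179 gained regions were 9.46% of the 97071 with no peak in either hDE library. Regions are made from the peaks of the 4 lists, so all 97071 have an hPFE peak. Their 9.46% cannot be set against the 4.89% at gene ends. A further 3651 regions had a peak in all 4 libraries, and 1332 in both hPFE and 1 hDE library. Gained regions were thus also most of those with a peak in both hPFE libraries. At gene ends the like counts were 9358 and 312, beside 384 gained genes. A gene has windows at 2 ends and a region only the width of its peaks, so the shares of the 2 places are of unlike units. Widths were modest, with medians of 440 bp for gained, 498 bp for lost and 1028 bp for regions in all 4 libraries. The weaker of the 2 peaks had a median −log10 p of 4.20 in gained and 5.19 in lost regions. Gained regions lay inside a protein-coding gene in 62.6% and lost regions in 47.5%, against 57.4% of all distal regions. With a library left out, the more frequent direction depended on the stage left with 1 library, where a single peak then makes the call. Without hPFE replicate 1 there were 67804 gained and 26489 lost regions, and without hPFE replicate 2 41274 and 27917, while without hDE replicate 1 there were 9782 and 64299 and without hDE replicate 2 10012 and 57406. A further 87892 regions had a peak in 1 hPFE library and no hDE library, and 62568 in 1 hDE library and no hPFE library. At each setting that kept 2 libraries a stage losses outnumbered gains, with gained regions at 17.3% to 28.3% of changes.

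Other marks set the distal calls apart. Gained regions had an H3K4me2 peak in 15.7% and 13.9% in the hESC libraries, 6.10% and 6.70% in hDE, 26.0% in hAFE and 36.4% in hPFE. Lost regions had it in 14.0% and 12.8% in hESC, 35.4% and 35.8% in hDE, 9.99% in hAFE and 5.01% in hPFE. Over all distal regions the share was 8.42% to 11.7% in the 6 libraries, so each set was above it at the stage with the acetylation and below it at the other. Most of all distal regions have a peak in a single library (87892 in hPFE and 62568 in hDE), and their median width is 204 bp, so they are not a matched comparison. Regions with H3K27ac in all 4 libraries had H3K4me2 in 65.2% to 74.7%. Calls made without hPFE replicate 1 or 2, which take in peaks of a single hPFE library, put the hPFE share of gained regions at 8.99% or 16.4%, and those without hDE replicate 1 or 2 put the share of lost regions with H3K4me2 in both hDE libraries at 11.3% or 12.7%, where all 4 libraries gave 22.9%. Distal H3K27me3 was rare, at 0.185% and 0.294% of gained regions in hPFE and 0.774% and 1.47% in hDE, and at 1.53% and 1.89% of lost regions in hPFE and 0.024% and 0.26% in hDE. In hAFE, H3K27ac was found at 27.9% and 12.8% of gained and 4.27% and 2.74% of lost regions, against 6.56% and 3.53% of all distal regions. In hESC it was at 9.88% and 7.30% of gained and 11.4% and 8.46% of lost regions, against 6.67% and 5.23% of all distal regions. Of the lost regions, 21437 had no H3K27ac peak in either hESC library, and 23643 had none in either hAFE library. A peak in at least 1 hESC library was at 14.2% of lost regions and 8.74% of all. In at least 1 hAFE library it was at 5.34% of lost regions and 7.3% of all.

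**Figure D3:**
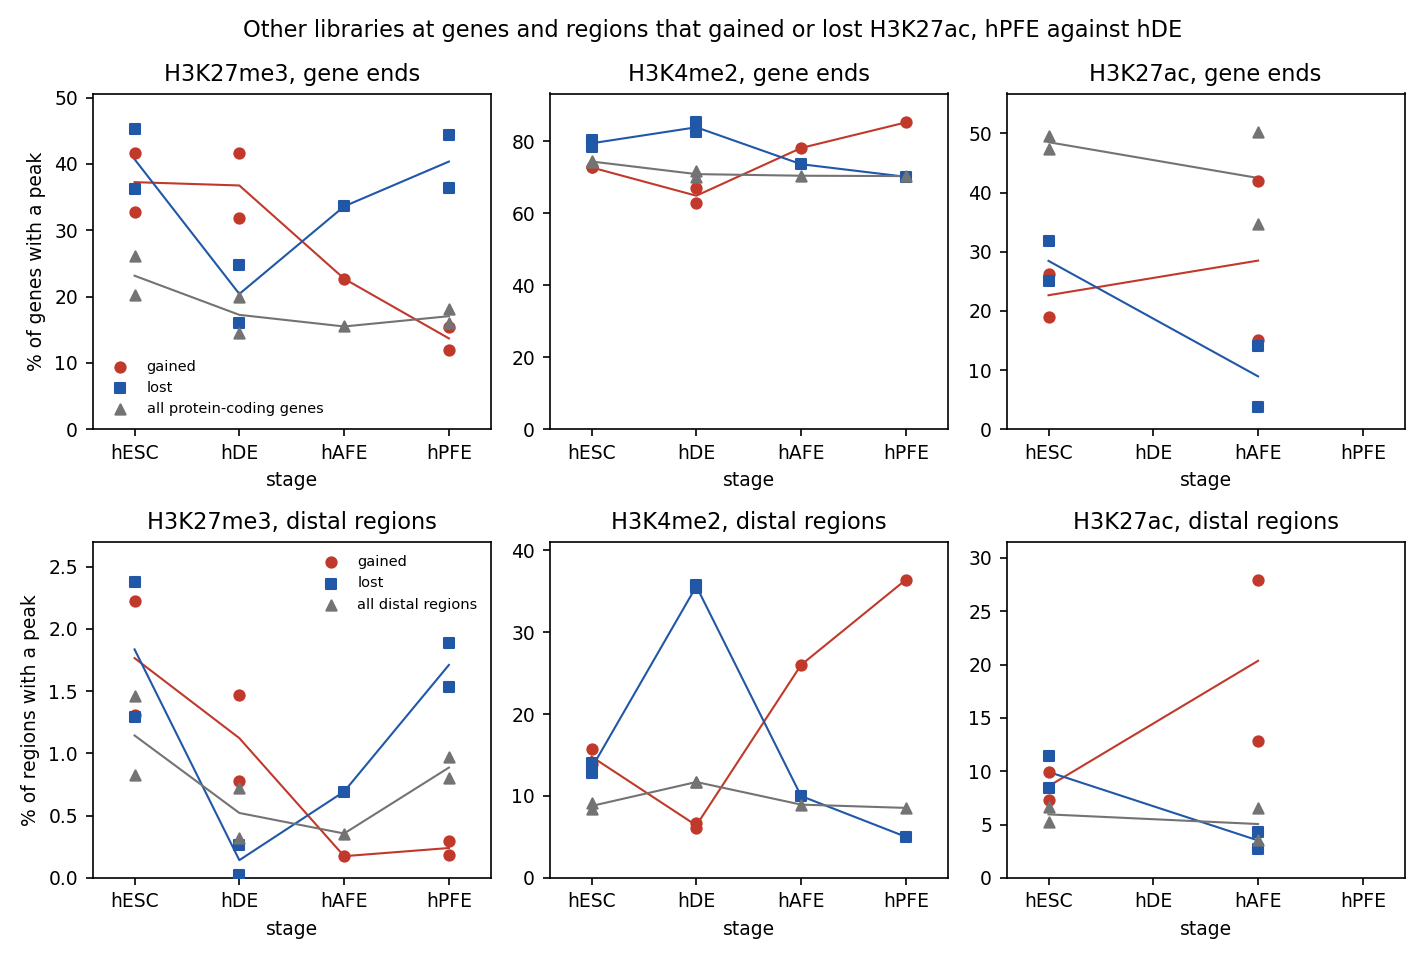
Percent of gained (red circles) and lost (blue squares) genes (top) and distal regions (bottom), and of all protein-coding genes or all distal regions (grey triangles), that have a peak of H3K27me3, H3K4me2 or H3K27ac at each stage. A symbol is 1 library and lines join the means of the libraries of a stage; H3K27ac of hDE and hPFE is left out because it made the calls. In H3K4me2 at distal regions the gained set ends at 36.4% in hPFE and the lost set at 5.01%.

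Counted by nearest protein-coding gene, which describes position and not a target, changed regions followed the calls at gene ends for some lists and not for others. Of the gained genes, 39.3% were also the nearest gene of a gained distal region, against 14.7% of lost genes and 18.4% of genes with no call, and 57.7% of lost genes were the nearest of a lost region, against 34.9% of gained genes and 29.5% of genes with no call. Over all genes losses were the more frequent direction, with gains at 26.9% of changed distal regions, and no count below was tested against that share. The 14 primitive streak factors had 2 gained and 79 lost regions nearest to them, the 17 endoderm factors 19 and 134, and the Nodal list 9 and 77. GATA6 had 0 gained and 28 lost, KIT 0 and 15, LHX1 0 and 14, and GSC and CXCR4 0 and 12 each. Most of the regions nearest to them had no call, out of 69 at GATA6, 47 at KIT, 36 at LHX1, 25 at GSC and 52 at CXCR4. SMAD2, an effector of Nodal, had 0 and 13, and BMP2 1 and 31. GATA6 and CXCR4 were short of a lost call at their gene ends, and the changed distal regions nearest to them were all losses.

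The 47 pharyngeal factors had 135 gained and 130 lost regions nearest to them, where all genes together had 9179 and 24976. ISL1 had 9 gained and 0 lost, TP63, a factor of basal epithelia with no peak at its own ends, 12 and 0, and GRHL2 16 and 0. SHH had 3 and 0. The BMP list, with more gains than losses at gene ends, had 53 gained and 104 lost regions, and its members went both ways. Losses outnumbered gains over all genes too. ID1, a BMP target, had 6 gained and 0 lost and the receptor BMPR1A 7 and 0, whereas the receptor BMPR2 had 0 and 12, the inhibitory SMAD6 3 and 12, the BMP target ID2 3 and 15 and the ligand BMP7 6 and 11. SOX2 had 16 gained and 6 lost, NR2F2, an orphan nuclear receptor, 19 and 9, GLI3, a hedgehog effector, 15 and 6, and the Notch ligand JAG1 10 and 2. PAX9, marked at its ends in 1 hPFE library, had 9 and 6, and MEIS1 had 14 and 12. In the fibroblast growth factor list SPRY2 had 9 gained and 27 lost, SPRED2 5 and 22, FGFR2 13 and 11 and SPRY1 13 and 4. Of these feedback inhibitors SPRY1 had more gains, and SPRY2 and SPRED2 more losses, the more frequent direction over all genes. CDH2, the neural and mesenchymal cadherin, had 6 and 51. Many of these regions lay far from the gene. Within 100 kb of a gene end the gained regions were 4 at SOX2, 4 at NR2F2 and 0 at SHH, and the lost were 0 at SPRY2 and 19 at CDH2. All 16 gained regions of GRHL2 and all 6 of ID1 lay within 100 kb, and 6 of the 9 of ISL1.

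Over all genes, the most gained regions were nearest RAD51B (45 gained, 3 lost), PDGFC, a growth factor (35 and 0), CADM1, an adhesion molecule (34 and 10), RBMS3 (33 and 7), ADGRL2 (31 and 17), MAML2, a Notch coactivator (29 and 2), MAST4 (27 and 1), TNS3 (27 and 22), IGF1R (24 and 14) and KIAA1217 (24 and 2). The most lost regions were nearest AUTS2 (2 gained, 82 lost), LOC124903233 (0 and 58), CDH2, FAM135B (1 and 51), PLXNA2 (7 and 48), FLRT2 (1 and 43), UNC5D (5 and 42), ANK2 (2 and 39), CTNNA2 (3 and 39) and ROR2, a WNT receptor (3 and 39). Several of these are long genes or stand beside wide intergenic spans, and counts were not set against length. The counts take in regions at any distance. Within 100 kb of a gene end, gained regions were 8 at RAD51B, 4 at MAST4 and 0 at KIAA1217, but 31 at PDGFC. Lost regions within 100 kb were 20 at AUTS2 and 0 at CTNNA2, but 36 at ROR2. Genes with many of both kinds were ZNF608 (23 and 35), TNS3, FAT3 (21 and 21), SEMA3D (16 and 15), SOX5 (14 and 29) and LOC124901483 (13 and 32).

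**Figure D4:**
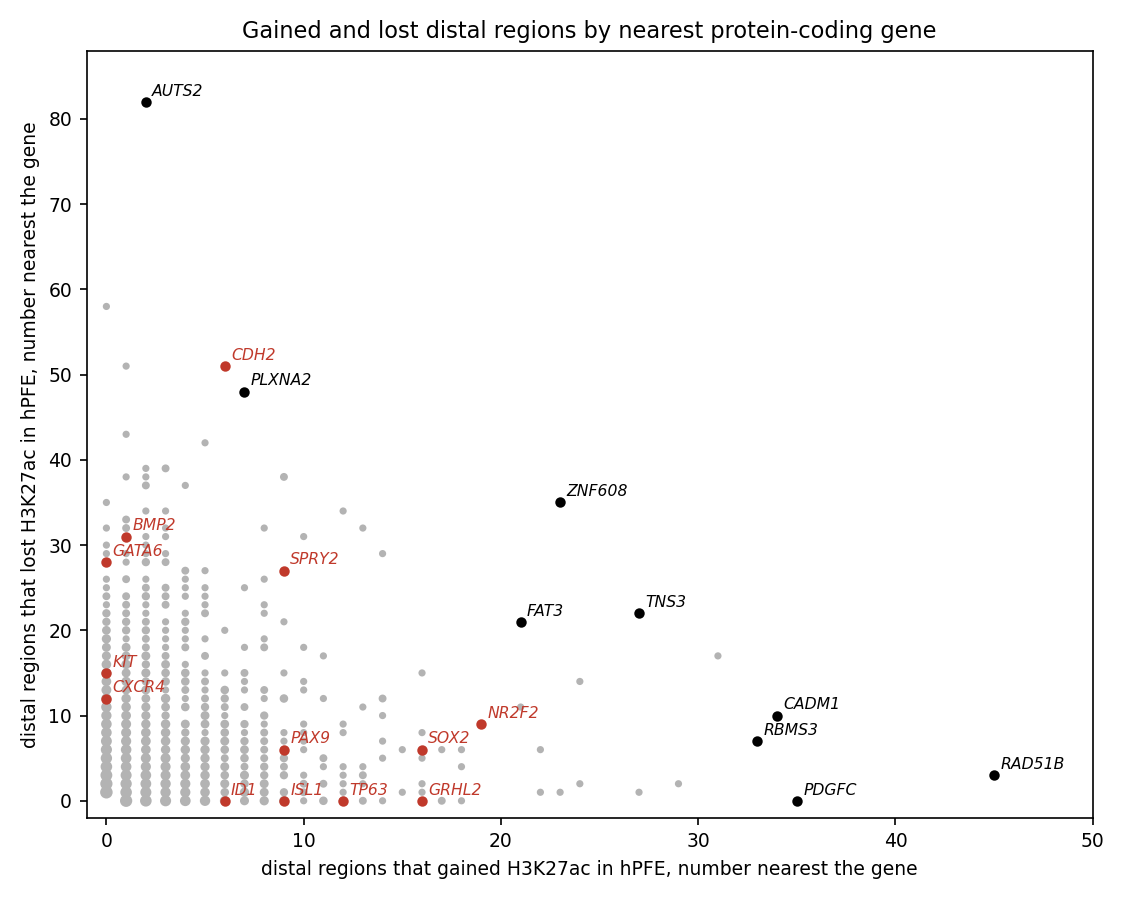
Number of distal regions that gained (x axis) and lost (y axis) H3K27ac in hPFE, by nearest protein-coding gene at any distance. Larger grey dots stand for more genes at a point, with list genes named in red and others among the highest counts in black. GATA6, KIT and CXCR4 lie on the axis of losses, and ISL1, TP63, GRHL2 and ID1 on the axis of gains.

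The strongest gained region lay 130.0 kb from the nearest end of TP63, within the gene (chr3:189765704-189767453), with 12.3 and 13.8 in the hPFE libraries and no peak in hDE. It also had H3K27ac in both hAFE libraries (5.78 and 5.28) and H3K4me2 in hAFE (4.26) and hPFE (6.56) but not in hDE. The next were near PROSER2 (chr10:11874811-11876903, 12.8 and 13.5), SORL1 (10.4 and 10.8) and DNAJB9 (10.5 and 12.7), followed by ERRFI1, WWC1, YIPF5 and HS6ST1 with 8.15 to 9.48. In 7 of these 8 the first hAFE library had a peak, the one near YIPF5 being without. The strongest lost region lay 6.39 kb from VRTN (chr14:74345854-74353613), with no peak in hPFE and 18.2 and 24.8 in hDE, and had H3K27ac in both hESC libraries (9.25 and 10.7). Those near MRPL15, CALCR, EGFLAM, TMPRSS11E, SLC5A9, PCCA and PSMA6 had 16.78 to 24.03 in hDE and none in hPFE. The region near TMPRSS11E (chr4:68406226-68410187) had 14.2 and 8.57 in hESC, and those near EGFLAM, SLC5A9 and PSMA6 no H3K27ac peak outside hDE.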

How the data were processed

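H3K27ac peak lists of 2 hPFE and 2 hDE libraries were compared, with the lists of the other marks and stages as separate readouts; the 4 input samples have no list of their own. The authors called peaks for each library against the input of its stage after sorting and removing duplicates, at p 0.01 with a cap on their number, per the file names. Coordinates are on hg38, which the submitters' processing notes name. Aligner and peak caller: not given in the sources used here. The deposited lists give, for each peak, a fold enrichment ratio over input, −log10 p and −log10 q, and an integer score that is 10 times the −log10 p; all are the authors' values, and enrichment is used only to describe and rank peaks within a list. Read counts are not in the lists, so depth is unknown and no interval is given. Per the file names, replicate 1 of the H3K27me3 libraries of hESC, hDE and hPFE carries the word millipore and replicate 2 does not, and the hESC H3K27ac and H3K27me3 samples are titled as re-analysed.

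Peaks on chromosomes 1 to 22 and X were merged per list and overlapped (at least 1 bp) with windows of 1 kb around both ends of 19974 protein-coding genes (RefSeq, GRCh38.p14, the same assembly as hg38). Peaks of the 4 lists were joined into 250624 regions, distal where over 2 kb from the ends of any of 59098 genes. Strand and promoter bases came from the RefSeq promoter table, which held 15812 of the genes. The members and the 24 gene lists (491 of 492 genes in the table) were chosen with earlier results of these data known. Named are list genes that changed at a gene end or have 3 or more changed distal regions, the 12 genes outside the lists and the 8 regions of each direction with the best rank of −log10 p in the weaker library, and the 10 genes with most gained and most lost regions and 8 with most of both. Genes named beside these were added after their values were seen, to show markers and calls just missed. Some genes that this rule names are not reported here. The calling was tested on simulated lists with planted changes. Alternatives were stricter peaks, equal list lengths, a larger overlap, other windows and distances, H3K4me2 at the end, and each library left out. Python 3.11.15, pandas 2.3.3, numpy 2.4.6 and matplotlib 3.10.9 were used.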

Additional observations from a re-analysis of the deposited data

How the results depend on the processing

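None of the alternatives could turn a gained gene into a lost one or the reverse. Each only removes marks at gene ends, only adds them or leaves out a library. At peaks of −log10 p of 5 or more, 40.9% of the gained and 61.0% of the lost genes kept their call; FOXC2, HOXA2, NKX2-5, KLF5, LEF1, ITGB4, ITGB6, MEIS3, BMPR1B, CDH6, FGFR3, MX1 and STRA6 were among those no longer gained and ALB, HOXD13, KDR, LGR5, MNX1, PRDM14, GDF1, PSMB11 and SP8 among those no longer lost. With a 2.5 kb window SOX2, CCND1, FGF8, FOXA3, FOXH1, LEFTY1 and WNT3 were among those no longer called. Gene counts ranged over 287 to 437 gained and 561 to 765 lost outside the settings that leave out a library or use the 5′ end alone, an alternative chosen after seeing the data (265 and 422). Gained genes were 27.3% of changes at −log10 q of 2 or more and 37.8% as reported. Leaving out a library gave 488 to 896 gained and 842 to 1112 lost genes, and 9782 to 67804 gained and 26489 to 64299 lost distal regions. Distal counts were 3518 gained and 14920 lost at −log10 p of 5 or more, 3936 gained at −log10 q of 2 or more, and 3872 and 16112 with an overlap of 200 bp; a stricter rule leaves fewer peaks.

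With stricter peaks, applied to all marks, the shares with H3K27me3 and most with H3K4me2 were lower; the share of gained distal regions with hDE H3K4me2 was 3.52% at −log10 p of 5 or more and 3.23% at −log10 q of 2 or more, beside 3.17% as reported. At each setting named here the stage with the higher share was the same. H3K27me3 at gained genes was 3.79% in hPFE and 16.9% in hDE at −log10 p of 5 or more and 4.18% and 18.1% at −log10 q of 2 or more; at lost genes it was 16.7% and 6.01%, and 18.4% and 6.93%. With either library enough, these shares were 19.8% and 43.5% for gained and 46.9% and 27% for lost genes, and with 200 bp of overlap 29.1% of lost genes had it in hPFE. Without a library they were 6.76% to 13.2% and 25% to 31.1% for gained and 24.2% to 32.7% and 11.1% to 18.2% for lost genes. Distal H3K4me2 at gained regions was 21.7% in hPFE at −log10 p of 5 or more, 25.7% at −log10 q of 2 or more, 39.3% with equal lists and 50.7% with 200 bp, and in hDE 3.99% with equal lists, 3.90% with 200 bp, 9.63% with either library enough, 2.71% from 5 kb and 3.81% from protein-coding ends. At lost regions it was 2.60%, 2.97%, 5.35% and 5.31% in hPFE under the first 4 settings, 4.42% from 5 kb and 5.57% from protein-coding ends, and in hDE 12.2%, 14.4%, 26.5% and 29.0%, then 48.2% with either library enough, 22% from 5 kb and 23.6% from protein-coding ends. Without a library the gained shares were 8.99% to 37.5% in hPFE and 1.21% to 4.47% in hDE, and the lost shares 3.51% to 6.87% and 11.3% to 24.3%. The cause was not tested. No paired analysis was possible because the counts come from no test. Unknown depth, 2 libraries a stage and hPFE lists that overlap little limit every count.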

Other observations

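The X chromosome stood apart among distal regions. Of its 3099 distal regions 940 lost H3K27ac (30.3%), against 9.34% to 13.4% on the 22 autosomes, while 104 gained it (3.36%), against 3.80% to 6%. The share of all H3K27ac peaks that lie on X was 1.68% and 0.962% in the hPFE libraries and 2.69% and 2.73% in the hDE libraries, and over peaks that reached a −log10 p of 5 it was 1.85% and 1.44% in hPFE and 2.76% and 2.76% in hDE. In H3K4me2 the order was the other one over all peaks, with 2.69% on X in hPFE and 1.77% and 1.86% in hDE, and at that threshold it was 1.76% in hPFE and 1.72% and 1.83% in hDE. Why the X chromosome differs was not tested.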
